A study of Mus musculus with 36 samples.

Results

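The 12 libraries described here are the mouse bone marrow-derived macrophage cultures of the series that received lipopolysaccharide (LPS) for 8 h, out of 36 libraries in all. They fall into 2 sets of 6 that the labels do not name. The sets were drawn from the counts themselves: each library was placed by its score on the first principal component. Set A holds WT1, WT2 and WT6 with KO1, KO2 and KO6, and set B holds WT3, WT4 and WT5 with KO3, KO4 and KO5, where WT and KO stand for the genotype labels WT and NOS1 KO and the number only names a library. Because the counts chose the sets, every difference between set B and set A is given as a description with no test. Tests were made only of KO-labelled against WT-labelled libraries and of library totals.

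All 36 libraries come from marrow differentiated for 5 days in medium with macrophage colony-stimulating factor (M-CSF) at 20 ng/mL. The design crosses 2 genotype labels with no LPS, 2 h and 8 h of LPS at 100 ng/mL, which gives 6 conditions. Each set thus has 3 WT-labelled and 3 KO-labelled libraries at 8 h. In WT6 and KO6, both in set A, the genotype label begins with BMDM, and in the other 10 it does not. The labels give no strain, age, sex or allele, name no batch, and do not say whether libraries come from separate mice or cultures, so p-values below measure the spread between libraries only.

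LPS is a bacterial cell wall component that Toll-like receptor 4 recognises on macrophages. The receptor starts NF-kB signalling, which drives cytokine and chemokine genes, and a second arm makes interferon beta, which acts back on the cells through JAK-STAT signalling to raise interferon-stimulated genes. Macrophages grown in M-CSF divide until an activating stimulus such as LPS arrests them. SOCS proteins, named in the series title through SOCS1, limit both cytokine and NF-kB signalling, and NOS1 is the neuronal isoform of nitric oxide synthase.

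Promoters of 3 genes are shown first, because 2 gene groups described below, mitotic genes and interferon-stimulated genes, carry known motifs near their starts. Each is the stretch of 250 bases before the gene's start in RefSeq (build GRCm38.p6), read 5′ to 3′ on the gene's own strand, with motif matches in capitals. In Top2a and Cdk1, both on the minus strand, the capitals mark the cell cycle homology region TTTGAA and the CCAAT box, either strand counted. In Ifit1, on the plus strand, they mark the interferon-stimulated response element, taken as a pair of GAAA repeats with 2 free bases between them, either strand counted.
Top2a (chr11:99024190-99024439): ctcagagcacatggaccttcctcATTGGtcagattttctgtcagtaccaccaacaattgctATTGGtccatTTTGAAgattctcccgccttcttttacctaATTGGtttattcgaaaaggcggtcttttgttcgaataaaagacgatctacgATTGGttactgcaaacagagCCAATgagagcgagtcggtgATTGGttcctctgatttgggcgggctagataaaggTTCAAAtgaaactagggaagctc
Cdk1 (chr10:69352913-69353162): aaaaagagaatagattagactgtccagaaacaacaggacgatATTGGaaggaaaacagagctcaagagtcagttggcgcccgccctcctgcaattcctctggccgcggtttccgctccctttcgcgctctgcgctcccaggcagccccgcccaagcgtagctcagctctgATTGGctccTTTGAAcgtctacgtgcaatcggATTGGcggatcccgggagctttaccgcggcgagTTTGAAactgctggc
Ifit1 (chr19:34640639-34640888): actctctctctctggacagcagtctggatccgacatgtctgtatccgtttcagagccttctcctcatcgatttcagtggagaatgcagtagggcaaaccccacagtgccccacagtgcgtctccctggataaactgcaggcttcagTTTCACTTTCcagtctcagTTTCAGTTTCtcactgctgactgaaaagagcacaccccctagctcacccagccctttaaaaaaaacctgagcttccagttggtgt
The TTTGAA motif was found in 75% of the 28 windows of 300 bases around the starts of mitotic genes, against 12.4% of 11633 such windows over all genes. CCAAT was found in 85.7% of them, against 37.7% over all. The interferon element was found in 54.8% of the 42 windows of interferon-stimulated genes, against 3.48% over all. Among windows of genes higher in set B, 19.9% held TTTGAA, and among those of genes lower in set B 7.05% did. The higher genes include the called mitotic ones. CCAAT was found in 41.3% and 36.9% of these windows and the interferon element in 4.93% and 2.49%, nearer the shares over all. RefSeq windows were matched for 9140 of the 11919 genes tested, 27 of 32 mitotic and 34 of 45 interferon-stimulated ones. These are matches of letters only.

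Library totals at 8 h ran from 8953489 to 15112452 counts. They averaged 12558505 in set A (SD 2281928, n = 6) and 13125648 in set B (SD 1319687, n = 6), a difference of 567142 that was smaller than the spread within set A (exact permutation test of the means, two-sided, p = 0.615). After removal of the genotype-label means, the first component held 55.1% of the variance. Set A scored between -35.5 and -21.9 on it and set B between 28.0 and 34.0. Pairs of libraries with the same label gave a mean chi-square per gene, where sampling noise gives 1, of 53.6 to 76.1 across sets, 4.41 to 19.6 within set A and 2.18 to 11.7 within set B.

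**Figure D1:**
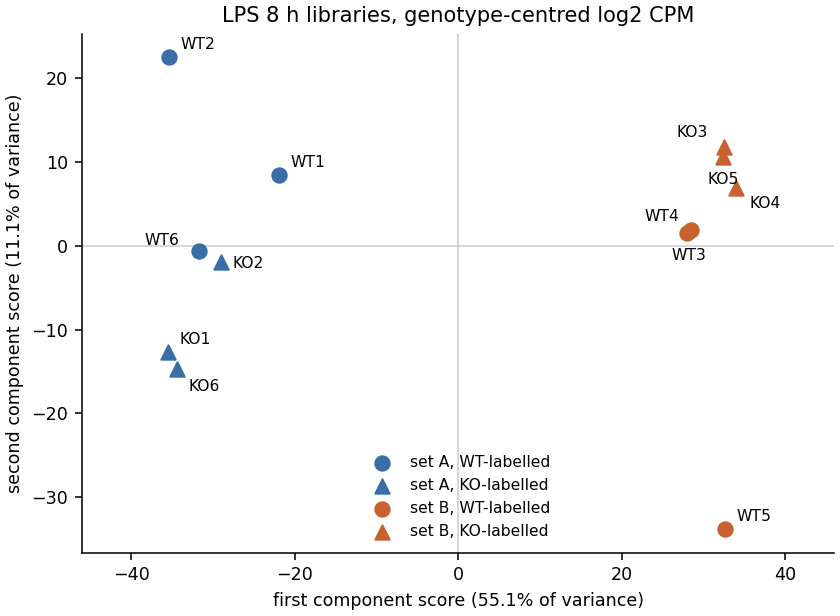
Scores of the 12 libraries on the first and second principal components of log2 CPM (counts scaled to the library total) after removal of genotype-label means (axes without unit, percent of variance in the axis labels). Set A lies between -35.5 and -21.9 on the first component and set B between 28.0 and 34.0, and WT5 is lowest on the second.

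Macrophage markers were abundant, as the label has it: the summed level of 12 macrophage genes was 12787 to 15401 CPM (counts per 1e+06 of the TMM-scaled library total) in set A and 15186 to 17430 CPM in set B, and no member was called different between the sets. A pair of libraries stood apart. WT1, in set A, had 6093 Xist counts and none from Ddx3y or Kdm5d, while the other 11 libraries had 0 or 1 Xist count. WT5, in set B, had 4259 CPM over 19 skeletal muscle genes, against 9.68 to 114 CPM elsewhere. Some counts are therefore also given without WT1 and WT5. Nos1 (chromosome 5, 117781032 to 117958840, mm10) went against the labels: the KO-labelled libraries had 16, 10 and 17 counts in set A and 11, 20 and 22 in set B. The WT-labelled libraries had no Nos1 count in set A, and 0, 1 and 8 in set B, the 8 in WT5. The labels are therefore used below only as names of groups.

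Of 11919 genes tested, 479 (4.02%) were at least 2-fold higher in set B and 261 (2.19%) at least 2-fold lower, with no overlap between the 6 libraries of each set. Without the fold condition, 1434 genes (12%) did not overlap and were higher in set B and 1406 (11.8%) were lower. The higher genes had a median log2 difference of 1.61 and the lower ones -1.34, while the median over all genes was 0.02. Both directions together came to 740 genes (6.21%). At least 4-fold differences numbered 152 upward and 31 downward. Taken within each label, 411 genes (3.45%) were 2-fold or more higher in set B in both and 215 (1.8%) lower in both. At the threshold, Ttc19 lay just inside at a log2 difference of 1.001 and Lta just outside at 0.999, with Fzd5 just inside at -1.003 and Tiam1 just outside at -0.996. Without WT1 and WT5, 718 of the 740 genes were still called, among 878. With fewer libraries the condition of no overlap is easier to meet, here and in the list counts below.

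Most of the tested genes of blood monocytes and of neutrophils and their precursors were higher in set B. Over all genes tested 4.02% were called higher in set B and 2.19% lower. List counts of set B against set A below are to be read against these shares. Of 9 monocyte genes tested, 7 were higher and none lower (median log2 difference 2.37), and of 11 neutrophil genes 10 were higher and none lower (median 1.96, and 9 higher without WT1 and WT5). F13a1, which encodes the A subunit of coagulation factor XIII (chromosome 13, 36867178 to 37050244), read 0.719, 0.673 and 0.861 CPM in WT1, WT2 and WT6 and 1.47, 0.371 and 0.8 CPM in KO1, KO2 and KO6. In set B it read 18.3, 16.6 and 15.6 CPM in WT3, WT4 and WT5 and 7.92, 9.83 and 8.39 CPM in KO3, KO4 and KO5. Every library of set B was thus above every library of set A (log2 difference 3.88).

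Ly6c2, the surface antigen of classical monocytes, stood at 1.53 to 5.05 CPM in set A and 23.02 to 34.22 CPM in set B. Ccr2, the receptor that draws monocytes to sites of inflammation, stood at 2.49 to 3.56 CPM and 7.59 to 11.9 CPM. Plac8 was at 0.765 to 2.3 CPM in set A, and in set B at 11.9 to 14.8 CPM in WT-labelled and 21.5 to 25.6 CPM in KO-labelled libraries. Neutrophil granule genes followed the same order. Mmp8, neutrophil collagenase, read 2.29 to 4.18 CPM in set A and 17.70 to 23.96 CPM in set B. Prtn3, proteinase 3, read 0 to 0.445 CPM and 1.41 to 3.90 CPM, and Elane, neutrophil elastase, 0 to 0.223 CPM and 0.350 to 1.39 CPM. Of the 15 listed neutrophil genes 11 were tested. Ly6g, Retnlg and Cxcr2 were not, and reached at most 0.0702, 0.328 and 0.426 CPM in any library. Ly6c2, Ccr2, Ly6g, Retnlg and Cxcr2 were chosen from the lists after their values were seen.

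Summed over the whole lists, monocyte genes stood at 169 to 212 CPM in set A and 316 to 491 CPM in set B, and neutrophil genes at 203 to 311 CPM and 323 to 459 CPM. The largest member of each list overlapped between the sets. Vcan read 139 to 181 CPM in set A, and in set B 151 to 170 CPM under the WT label and 268 to 312 CPM under the KO label. Csf3r read 143 to 271 CPM in set A and 213 to 272 CPM in set B. Vcan and Csf3r were named after their values were seen. In bulk RNA, more cells of a type and more RNA per cell cannot be told apart. Dendritic cell genes summed to 606 to 718 CPM in set A and 706 to 979 CPM in set B, erythroid and megakaryocyte genes to 136 to 304 CPM and 222 to 329 CPM, and mast cell and basophil genes to 111 to 132 CPM and 129 to 158 CPM, and all 3 overlapped. Most of each sum came from few genes: Bst2 (482 to 864 CPM over both sets), Pf4 with Tfrc, and Hdc (111 to 157 CPM). These sums follow those genes and do not measure cell content. Bst2, Pf4 and Tfrc were named after their values were seen. T and NK genes summed to 12.4 to 21.1 CPM in set A and 10.3 to 14.6 CPM in set B, with 6 of 13 at 0 in every library. B and plasma cell genes summed to 2.42 to 8.23 CPM and 12 to 21.2 CPM, and eosinophil genes to 0.765 to 1.76 CPM and 3.09 to 5.56 CPM. Ighm, at 1.44 to 18.1 CPM over both sets, made up most of the B and plasma cell sum. The part of these cell types in the other differences was not tested.

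**Figure D2:**
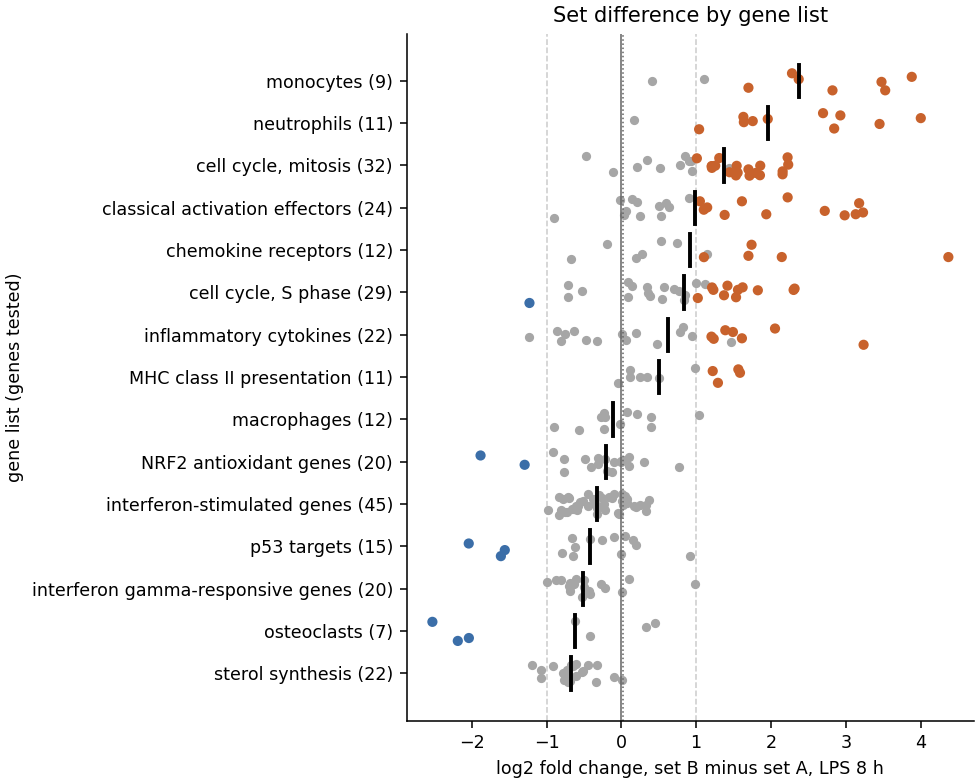
Log2 difference of set B minus set A at 8 h (horizontal axis) for the members of 15 gene lists (rows, with the number of genes tested), orange where called higher in set B, blue where called lower and grey otherwise, with a black bar at each list's median. Medians run from 2.37 for monocyte genes and 1.96 for neutrophil genes to -0.68 for sterol synthesis genes, and macrophage genes lie near 0 with a median of -0.11.

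Among cell division genes more were called higher than lower in set B. Of 32 mitotic genes 19 were higher and none lower (median 1.37, and 20 without WT1 and WT5). Top2a, the topoisomerase that separates sister chromatids (chromosome 11, 98992943 to 99024189), read 5.81, 5.27 and 3.35 CPM in the WT-labelled and 3.37, 9.05 and 3.76 CPM in the KO-labelled libraries of set A. In set B it read 24.7, 21.9 and 25.4 CPM and 26.3, 23.1 and 22.8 CPM. The sets did not overlap, and the labels within set B did. Cyclin A2 (Ccna2) stood at 0.366 to 1.26 CPM in set A and 2.46 to 5.11 CPM in set B, and Cdk1, the mitotic kinase, at 3.81 to 7.49 CPM and 10.7 to 12.3 CPM. Mki67, the gene of the Ki-67 proliferation antigen, overlapped, at 36.2 to 68.2 CPM and 39.5 to 72.4 CPM. Cdk1 and Mki67 were named after their values were seen.

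S phase genes that were called were mostly higher in set B. Of 29 tested, 11 were higher in set B and 1 was lower (median 0.84). Uhrf1, which reads hemimethylated DNA behind the fork, stood at 1.53 to 2.68 CPM in set A and 6.81 to 12.9 CPM in set B, and Cdc6, which loads the replicative helicase, at 0.08 to 0.670 CPM and 0.709 to 2.81 CPM. The lower member was Pcna, the sliding clamp of DNA polymerase, at 373.7 to 436.3 CPM in set A and 170 to 190 CPM in set B (log2 difference -1.23). Of 15 p53 targets tested, 3 were lower in set B and none higher (median -0.42). Cdkn1a, the p21 inhibitor of cyclin-dependent kinases, read 1496, 2055 and 1503 CPM in WT-labelled and 1389, 1920 and 1498 CPM in KO-labelled libraries of set A. In set B it read 669, 672 and 600 CPM and 426, 469 and 447 CPM (log2 difference -1.61). Phlda3 stood at 7.60 to 16.9 CPM and 1.80 to 3.58 CPM.

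Some effectors of classical activation and some secreted factors were higher in set B. Of 24 classical activation genes 12 were higher and none lower (median 0.98), of 22 inflammatory cytokines 7 were higher and none lower (median 0.63), and of 12 chemokine receptors 5 were higher and none lower (median 0.92). Without WT1 and WT5 the cytokines had 8 higher and 1 lower, and the receptors 6 higher. Other activation genes were flat or lower, with log2 differences of 0.15 for Nos2, 0.005 for Il6, -0.47 for Tnf and -1.23 for Ifnb1. Of 15 alternative activation genes 4 were higher and 3 lower (median -0.18). Arg1 had a log2 difference of 3.68. The receptor Ccr7, which guides cells to lymph nodes (chromosome 11, 99144196 to 99155077), showed the largest difference among called genes whose log2 CPM averaged 2 or more. It read 1.83, 1.23 and 1.34 CPM in WT-labelled and 0.513, 0.816 and 1.92 CPM in KO-labelled libraries of set A. In set B it read 24.1, 24.6 and 22.3 CPM and 28.6, 31.9 and 28.6 CPM (log2 difference 4.37). Cd38, an NAD-consuming ectoenzyme, read 11.4 to 30.7 CPM in set A, and in set B 277 to 284 CPM under the WT label and 126 to 127 CPM under the KO label. Haptoglobin (Hp) stood at 4.401 to 11.69 CPM and 57.5 to 64.0 CPM, lipocalin 2 (Lcn2) at 46.2 to 100.4 CPM and 270 to 307 CPM, and Saa3, an acute phase protein, at 654 to 1716 CPM and 4638 to 5173.5 CPM. Lcn2 and Saa3 were named after their values were seen.

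Among cytokines, Csf3, which encodes the granulocyte factor G-CSF (chromosome 11, 98701263 to 98703629), read 6.66, 6.05 and 3.54 CPM in WT-labelled and 2.57, 6.38 and 4.08 CPM in KO-labelled libraries of set A. In set B it read 89.6, 93.0 and 88.0 CPM and 19.5, 22.3 and 22.5 CPM. All 6 libraries of set B were higher, with the WT-labelled ones highest. Il1a (chromosome 2, 129299610 to 129309972), which encodes interleukin-1 alpha, stood at 246 to 345 CPM in set A, at 1885 to 2129 CPM under the WT label in set B and at 687 to 774 CPM under the KO label. Il12b, the p40 subunit of interleukins 12 and 23, stood at 169.2 to 392.3 CPM and 688 to 919 CPM. Il1b overlapped: it read 866 to 1553.5 CPM in set A, and in set B 3604 to 3869 CPM under the WT label but 1059 to 1236 CPM under the KO label.

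Chemokines and antigen presentation were less uniform. Of 19 chemokines 2 were higher and 1 lower, against 4.02% and 2.19% of all genes tested. Ccl22, which attracts regulatory T cells, stood at 69.1 to 144 CPM in set A and 291.0 to 388.5 CPM in set B, and Ccl17, which binds the same receptor, at 1.41 to 3.07 CPM and 4.31 to 10.6 CPM. Cxcl3, a neutrophil attractant, was not called, because KO-labelled libraries of set B, at 12.9 to 14.1 CPM, overlapped set A, at 4.84 to 15.2 CPM, while WT-labelled ones stood at 74.9 to 82.4 CPM. The lower one was Cxcl9, which attracts activated T cells, at 277 to 439 CPM in set A and 98.8 to 253 CPM in set B. Of 11 class II presentation genes 4 were higher (median 0.50), with H2-Aa at 7.51 to 35.3 CPM and 49.5 to 65.6 CPM. Of 31 NF-kB target and feedback genes 1 was higher (median 0.17), near the 4.02% of all genes tested. Socs1, named in the series title, stood at 47.3 to 69.4 CPM in set A and 49.8 to 70.8 CPM in set B and overlapped almost fully.

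**Figure D3:**
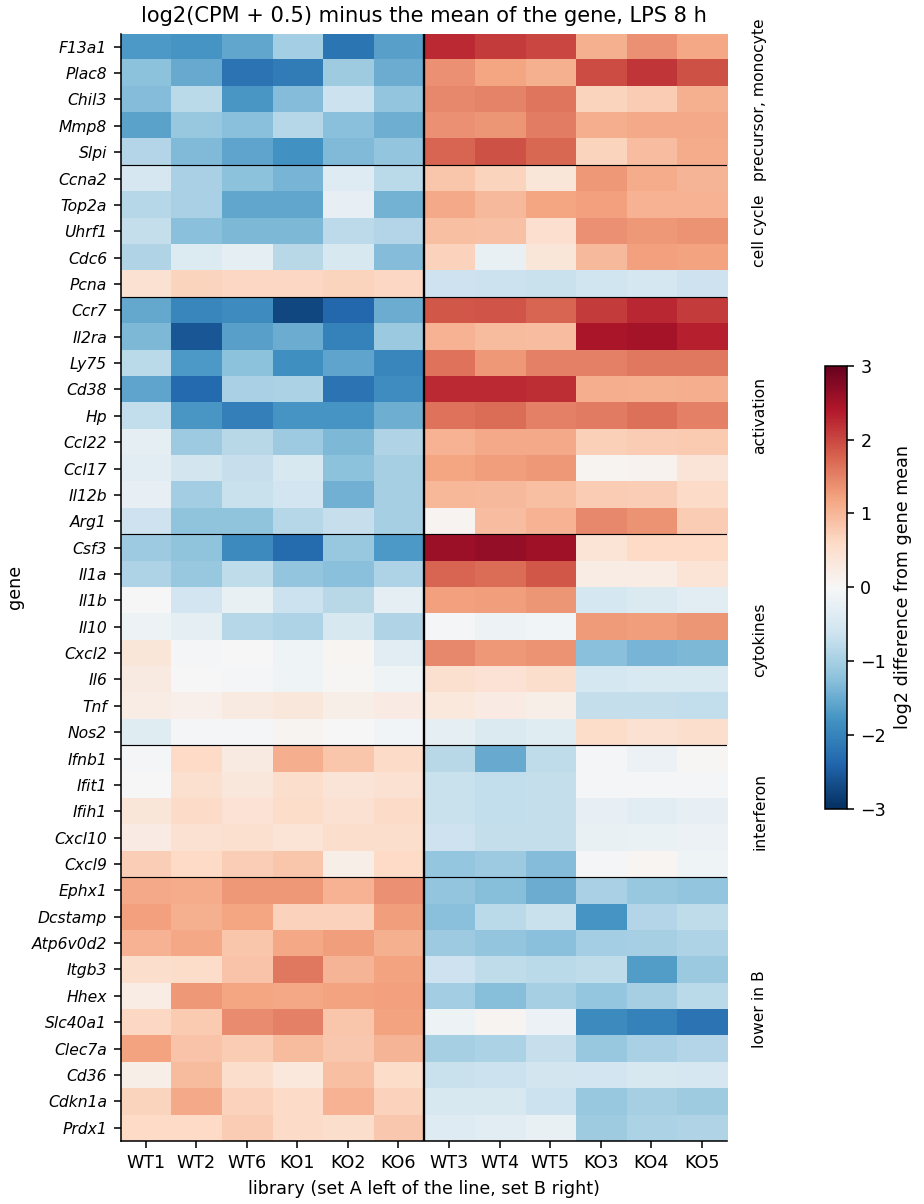
Heat map of the named genes (rows) in the 12 libraries (columns, grouped by set and label), coloured by log2 of CPM plus an offset of 0.5 relative to the gene's mean. Ccr7, F13a1 and Csf3 are higher in the 6 libraries of set B and Ephx1, Atp6v0d2 and Cdkn1a are higher in the 6 libraries of set A.

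Genes lower in set B included members of the osteoclast list. Of 7 osteoclast genes 3 were lower and none higher (median -0.63). Atp6v0d2, a subunit of the vacuolar proton pump (chromosome 4, 19876841 to 19922605), read 171, 186 and 146 CPM in WT-labelled and 184, 196 and 172 CPM in KO-labelled libraries of set A. In set B it read 38.1, 35.7 and 34.1 CPM and 40.2, 41.1 and 42.8 CPM (log2 difference -2.19). Dcstamp, needed for the fusion of osteoclast precursors, stood at 3.71 to 5.76 CPM and 0.264 to 1.15 CPM, and the integrin Itgb3 at 11.04 to 23.75 CPM and 2.04 to 4.74 CPM. Acp5 and Ctsk, defining osteoclast enzymes, went the other way in their log2 differences, at 0.33 and 0.45, without being called, and were named after their values were seen. The list summed to 226 to 279 CPM in set A and 95.9 to 115 CPM in set B. Most of that gap lay in Atp6v0d2, without which the sums were 61.7 to 101 CPM and 55.6 to 80.6 CPM and overlapped.

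Ephx1, microsomal epoxide hydrolase (chromosome 1, 180976210 to 181020904), read 27.2, 26.8 and 30.6 CPM in WT-labelled and 30.6, 25.7 and 32.3 CPM in KO-labelled libraries of set A. In set B it read 5.04, 4.68 and 4.02 CPM and 5.90, 5.26 and 5.04 CPM, which is the largest downward difference among those genes (log2 difference -2.53). Clec7a, the beta-glucan receptor dectin-1, stood at 127 to 174 CPM and 33.9 to 45.6 CPM. Slc40a1, the iron exporter ferroportin, stood at 17.2 to 32.1 CPM in set A, and in set B at 9.68 to 11.5 CPM under the WT label and 1.96 to 2.55 CPM under the KO label. Of 20 NRF2 antioxidant genes 2 were lower and none higher (median -0.21). Prdx1, a peroxiredoxin that removes hydrogen peroxide, was one of them, at 4119 to 5079 CPM in set A and 1378 to 2468 CPM in set B.

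None of 45 interferon-stimulated genes was called at 2-fold. Without the fold condition 20 of 45 were lower in set B without overlap, against 11.8% of all genes tested, and none was higher (median -0.32). Irf7, the interferon regulatory factor that amplifies the response, overlapped, at 1779 to 2218 CPM in set A and 1837 to 2943 CPM in set B (log2 difference 0.19), and the 3 genes below lay beyond the median. Ifit1, which binds foreign RNA ends (chromosome 19, 34640871 to 34650009, the promoter shown above), read 2427, 3369 and 3035 CPM in WT-labelled and 3469, 3137 and 3315 CPM in KO-labelled libraries of set A. In set B it read 1503, 1436 and 1450 CPM and 2350, 2351 and 2311 CPM. Cxcl10 stood at 3837 to 4704 CPM in set A and 1995 to 2879 CPM in set B, and Ifih1, the RNA sensor MDA5, at 1245 to 1435 CPM and 582 to 811 CPM. For the 22 sterol synthesis genes the median difference of set B minus set A was 0.01 under the WT label and -1.44 under the KO label, and none was called over both labels.

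The differences were partly present before LPS. Without LPS, 198 of 12470 genes (1.59%) were higher in set B by the same rule and 264 (2.12%) lower, and after 2 h 339 of 12426 (2.73%) were higher and 308 (2.48%) lower. Of the 479 genes higher at 8 h, 89 were also higher in controls, which is 18.6% of the 8 h list and 44.9% of the control list, and 133 were also higher at 2 h, which is 27.8% and 39.2%. Of the 479, 82.7% could be tested in controls and 90.4% at 2 h, and 4 were called the opposite way at each of these times. Of the 261 lower genes, 48 were also lower in controls (18.4% and 18.2%) and 79 at 2 h (30.3% and 25.6%), with 85.8% and 90.8% tested and 1 called the opposite way at each. Libraries without LPS and at 2 h were placed in sets by the first component over all 36 libraries (34.6% of variance), so these counts too carry no test.

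Monocyte and neutrophil genes differed at every time. The monocyte median was 1.84 in controls, 2.18 at 2 h and 2.37 at 8 h, and the neutrophil median was 1.65, 2.08 and 1.96. Classical activation genes also differed at every time, with medians of 1.17, 0.72 and 0.98. In controls 6 of 18 of them were called higher and none lower, against 1.59% and 2.12% of all genes tested there. Of 14 chemokines 5 were higher in controls and 1 lower. The class II presentation median was 0.99, 0.25 and 0.50. In control libraries F13a1 read 0.648 to 5.0 CPM in set A and 12.3 to 32.8 CPM in set B. The mitotic median was 0.67 in controls, 0.72 at 2 h and 1.37 at 8 h, and only 1 mitotic gene was called in controls. Top2a in controls stood at 117 to 182 CPM in set A and 226 to 312 CPM in set B, a log2 difference of 0.71 without overlap. For Cdkn1a the sets overlapped in controls, at 292 to 489 CPM and 271.2 to 367.1 CPM. Atp6v0d2 did not, at 294.8 to 384.8 CPM and 135 to 160 CPM. The interferon-stimulated median was 0.47 in controls and 0.19 at 2 h, opposite in sign to 8 h. In controls Ifit1 was at 41.4 to 56.2 CPM in the KO-labelled libraries of set B, 1.95 to 4.20 CPM in its WT-labelled ones and 5.11 to 12.4 CPM in set A.

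**Figure D4:**
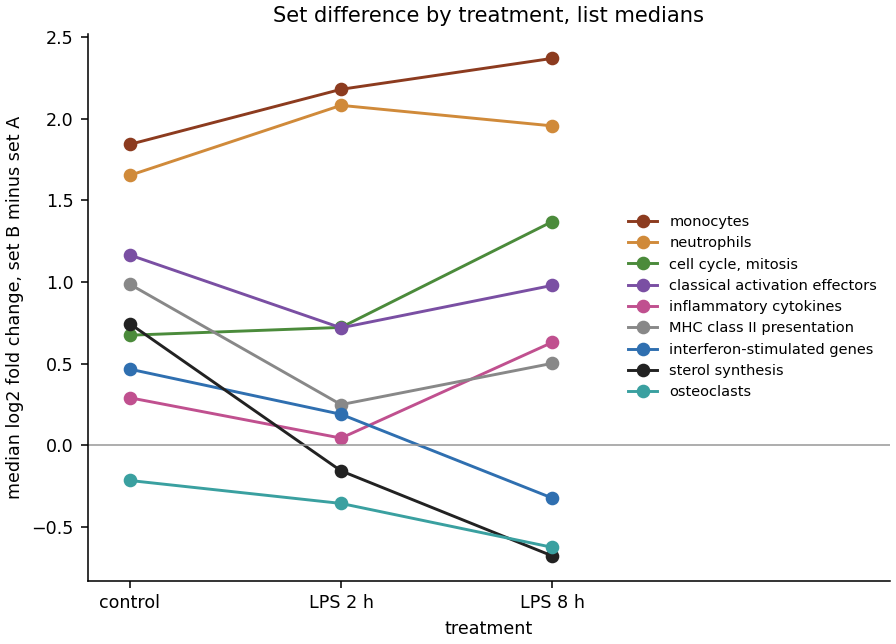
Median log2 difference of set B minus set A for gene lists (vertical axis) without LPS, at 2 h and at 8 h (horizontal axis). The monocyte and neutrophil lists lie between 1.65 and 2.37 at all 3 times, the mitotic list goes from 0.67 to 1.37, and the interferon-stimulated list from 0.47 to -0.32.

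The change from control to 8 h was taken within each set and label, as a description. The median over all genes was -0.12 in both labels of set A, -0.06 in WT-labelled and -0.10 in KO-labelled libraries of set B. With scaling by library totals alone it was -0.90, -0.93, -0.76 and -0.83, so list medians below are to be read against those values. Mitotic genes had medians of -4.29 (WT label) and -4.27 (KO label) in set A and -3.91 and -3.16 in set B. Classical activation genes had medians of 5.71 and 5.25 in set A and 6.35 and 6.29 in set B, and interferon-stimulated genes 5.07 and 5.21 against 5.47 and 3.81. Osteoclast genes had medians of -0.25 and -0.50 in set A and -1.50 and -1.36 in set B. Sterol synthesis genes had 0.67 and 0.81 in set A, which became -0.12 and -0.01 with library totals alone, and -0.26 and -0.84 in set B, which became -0.96 and -1.57. Monocyte genes had 0.14 and 0.06 in set A, which became -0.64 and -0.75 with library totals alone, and 1.18 and 0.81 in set B, which became 0.49 and 0.08.

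The comparison of KO-labelled with WT-labelled libraries gave different numbers of genes in the sets. In set B 2748 genes passed an adjusted p of 0.05 in edgeR's quasi-likelihood test (23.1% of those tested), 1598 of them higher under the KO label (13.4%) and 1150 lower (9.65%). In set A 8 genes passed (0.0671%), 6 higher (0.0503%) and 2 lower (0.0168%). That count also depended on single libraries, with 55 higher and 19 lower without KO2, 2 and 2 without WT1 and 3 higher without KO6. Without WT1 and WT5 the counts were 1330 and 987 in set B and 2 and 2 in set A. Of the 8 genes, 6 also passed in set B, all in the same direction. Genes that passed and differed 2-fold or more numbered 403 in set B (3.38%) and 5 in set A (0.0419%). At an unadjusted p under 0.05 there were 4120 genes in set B and 897 in set A. Differences of 2-fold or more, whatever their p, numbered 543 in set B and 120 in set A. A difference between the sets' label effects was not tested. Scaling by library totals alone turned the set B split to 1214 higher and 1649 lower. Libraries were put in sets by likeness of their counts, which lowers the spread within a set and the p-values with it. The fit used a common spread per gene for all groups of label and set. The SE and p-values given for a set therefore do not measure that set's own spread. Same-label libraries of set B lay closer together (median of the pairs' mean chi-square 3.19, against 13.9 within set A). The labels do not say whether they come from separate mice, so these p-values cannot stand for a spread between mice.

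In set B, 6 of 31 NF-kB target and feedback genes passed as higher under the KO label and 4 as lower. Over all genes tested 13.4% passed there as higher and 9.65% as lower. List counts within set B are to be read against these shares. Genes lower under the KO label included several cytokines and chemokines. Cxcl2, a neutrophil chemoattractant, read 773, 705 and 722 CPM in WT3, WT4 and WT5 and 120, 108 and 111 CPM in KO3, KO4 and KO5, a log2 difference of -2.70 ± 0.11 (SE, adjusted p = 3.4e-09, edgeR). In set A it read 362, 271 and 286 CPM and 260, 295 and 225 CPM, which overlap (-0.24 ± 0.11, adjusted p = 0.65, edgeR). Csf3 differed by -2.07 ± 0.18 in set B (adjusted p = 1.7e-06, edgeR), Il1b by -1.70 ± 0.14 (adjusted p = 1.2e-06, edgeR) and Tnf by -0.97 ± 0.07 (adjusted p = 2.2e-07, edgeR). In set A these 3 differed by -0.34 ± 0.26, -0.31 ± 0.14 and 0.04 ± 0.07, and none passed. Il6 fell by 0.97 on the log2 scale in set B (SE 0.08, adjusted p = 7.2e-07, edgeR) and differed by -0.16 ± 0.08 in set A.

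Other genes were higher under the KO label in set B. Il10, the main anti-inflammatory cytokine, read 34.9, 32.1 and 33.9 CPM in WT-labelled and 88.1, 87.2 and 91.5 CPM in KO-labelled libraries of set B (log2 difference 1.40 ± 0.14, adjusted p = 6e-06, edgeR). In set A it read 32.1, 29.6 and 19.7 CPM and 18.7, 25.7 and 19.1 CPM (-0.36 ± 0.15), without passing. Nos2, the inducible nitric oxide synthase, rose by 0.87 ± 0.09 in set B (adjusted p = 5.7e-06, edgeR), and Cxcl9 by 1.14 ± 0.12 (adjusted p = 1.1e-05, edgeR). Ifit1 rose by 0.68 ± 0.10 in set B (adjusted p = 0.00014, edgeR) and Cxcl10 by 0.48 ± 0.08 (adjusted p = 0.00039, edgeR). In set A Ifit1 differed by 0.17 ± 0.09 and Cxcl10 by 0.09 ± 0.08.

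By list, 37 of 45 interferon-stimulated genes passed as higher under the KO label in set B and none as lower (median log2 difference 0.37, 0.03 in set A), or 31 without WT1 and WT5. Of 22 sterol synthesis genes 21 passed as lower (median -1.06, 0.34 in set A), or 19 without them. Sqle, squalene epoxidase, read 61.9, 65.1 and 56.4 CPM in WT-labelled and 20.2, 20.4 and 18.5 CPM in KO-labelled libraries of set B (log2 difference -1.63 ± 0.20, adjusted p = 3e-05, edgeR), and was named after its values were seen. Of 20 NRF2 genes 15 passed as lower and 1 as higher (median -0.65, -0.03 in set A). In that list Slc7a11, the cystine importer, had a log2 difference of -2.27 ± 0.18 (SE, adjusted p = 8.6e-07, edgeR). Of 22 cytokines 8 passed as higher and 8 as lower. All 15 skeletal muscle genes passed as lower, and none did without WT5 and WT1. Of 52 named genes that passed in set B, 41 passed in each of 13 refits that left out 1 library or both WT1 and WT5.

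**Figure D5:**
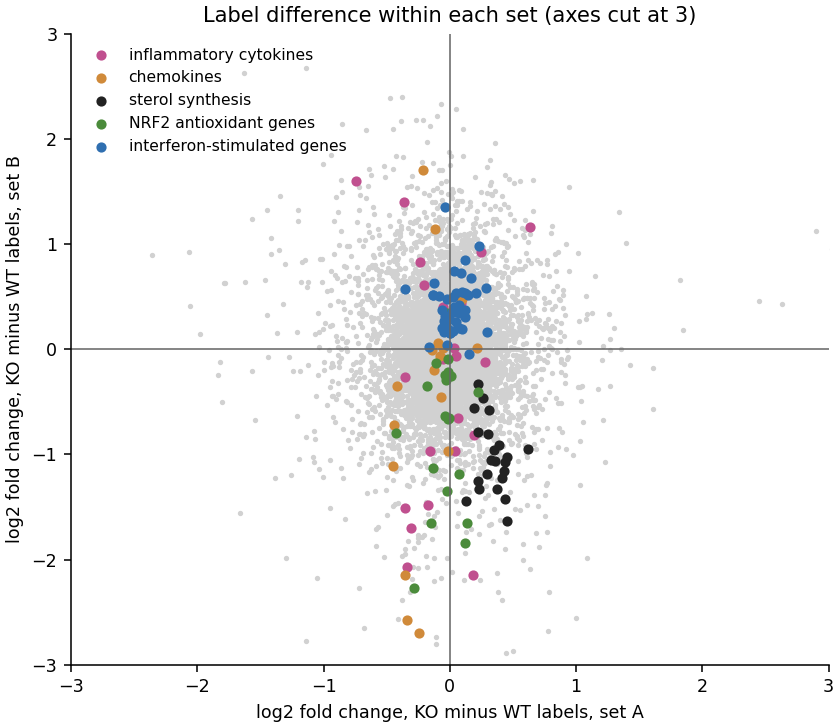
Log2 difference of KO-labelled minus WT-labelled libraries in set A (horizontal axis) and set B (vertical axis), one point per gene tested, grey or coloured by gene list, with 29 genes beyond the axis limit of 3 not shown. Sterol synthesis genes lie low on the vertical axis (median -1.06) and right of 0 on the horizontal one (median 0.34), and interferon-stimulated genes lie above 0 on the vertical axis (median 0.37) and near 0 on the other (median 0.03).

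Of the 8 genes that passed in set A, 4 lie on chromosome 5 between 114669398 and 115622654, and the span ends 2158378 bases before the start of Nos1. They are Gltp, 1500011B03Rik, Rplp0 and Gcn1l1, and chromosome 5 holds 6.45% of genes tested. Gcn1l1 differed by 0.55 ± 0.08 in set A and by -0.06 ± 0.08 in set B, where it did not pass, while the other named ones passed in both. Of 26 genes tested in the span 6 passed in set B, against 23.1% of all genes tested. Rplp0, a ribosomal stalk protein, read 746, 733 and 700 CPM in WT-labelled and 336.0, 371.3 and 337.6 CPM in KO-labelled libraries of set A (log2 difference -1.06 ± 0.06, adjusted p = 2.6e-07, edgeR). In set B it read 504, 500 and 463 CPM and 337.6, 380.7 and 356.2 CPM (-0.45 ± 0.06, adjusted p = 0.00015, edgeR). Gltp, a glycolipid carrier, read 137, 142 and 136 CPM and 100, 101 and 98.5 CPM in set A. Gm8730 and Gm9625, processed pseudogenes of the Rplp0 kind, ran the other way. Gm8730 read 1.18 to 2.47 CPM in WT-labelled libraries of set A, 92.7 to 101 CPM in WT-labelled libraries of set B and 177 to 211 CPM in all 6 KO-labelled ones. Gm9625 read 0.287 to 0.561 CPM, 20.2 to 22.1 CPM and 40.4 to 48.9 CPM. WT-labelled libraries of set B thus lay between the others for all 3. Reads can be shared between near-identical copies, so these values are uncertain.

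With set as a term in a single fit, 304 genes passed (2.55%), 216 higher under the KO label (1.81%) and 88 lower (0.738%), with 23 at 2-fold or more (0.193%). All 304 had the same sign in both sets, 281 were larger in set B, and 295 had passed there. That fit held a common label difference for both sets and used the same libraries, so a shared sign was largely built into passing. With library totals alone the split was 135 higher and 122 lower. The count depended on single libraries. Without WT3, WT4, WT5, KO3, KO4 or KO5 of set B in turn, 2, 3, 6, 2, 3 and 3 genes passed, and without WT1, WT2, WT6 or KO2 of set A 171, 862, 662 and 1052 did. Without WT1 and WT5 together 9 did, 5 of them among the 304.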

How the data were processed

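Gene counts of the 12 LPS 8 h libraries were analysed, with the 24 libraries of controls and LPS 2 h as context. The deposited values are whole-number counts per Ensembl gene, made by the authors with HTSeq on build mm10 per the submitters' processing notes. What aligner, annotation and strand option were used is not given in the sources used here, and without strand reads of overlapping genes cannot be separated. Of 54232 gene rows, 54165 were matched to GENCODE for symbols and positions. Rows that name no gene were not present.

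Sets follow the first principal component of the counts. Members and gene lists (46 in all) were chosen with earlier results of these data known. Genes were filtered with filterByExpr over the 4 groups of label and set, which left 11919, scaled by TMM and fitted with edgeR 4.0.16 in R 4.3.3 (quasi-likelihood test, Benjamini-Hochberg adjustment over all genes tested, limit 0.05), with 1 mean per label and set for within-set values. Set B minus set A was called at 2-fold or more with no overlap of 6 against 6 CPM values, and has no p. Log2 CPM used a prior count of 2. Genes named were the 12 largest called differences in each direction among genes whose log2 CPM averaged 2 or more, up to 2 called members of each list and direction or else its largest member, the 6 largest called KO minus WT differences in each direction with set as a term, 20 genes always named, and called genes where a count is 5 or fewer. Genes outside that rule are marked as chosen after their values were seen. The fitting step was tested on simulated counts. Alternatives were other scalings, filters, thresholds, DESeq2 1.42.0, limma-voom (limma 3.58.1), other sample sets and leaving out each library; dropping WT1 and WT5 together, and the alternatives for controls, LPS 2 h and the LPS response, were added after the data were seen. Library totals at 8 h of 8953489 to 15112452 counts limit the precision of low genes. Promoter windows were taken from RefSeq (GRCm38.p6).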

Additional observations from a re-analysis of the deposited data

Results flagged for a closer look

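Of 272 values checked in groups of 6, 17 had 1 library far from the rest. Each group holds the libraries of 1 label from both sets. The rate of about 1 in 20 by chance holds for a single population, so it cannot be applied here. WT5, in set B, was high for Ckm at 237 CPM (0 to 4.21 CPM in the other WT-labelled libraries), for Dcn at 10.4 CPM (0.336 to 2.07), for Nos1 at 0.656 CPM (0 to 0.0709), for the skeletal muscle sum at 4259 CPM (9.79 to 114) and for the sum of stroma, bone and fat genes at 278 CPM (90.4 to 156). WT1, in set A, had 6093 Xist counts (0 or 1 elsewhere), a sex-linked sum of 398.04 CPM (113 to 149), and 0 CPM of Kdm5d (10.1 to 14.3) and of Ddx3y (48.2 to 54.3). WT6 was low for Il10 at 19.7 CPM (29.6 to 34.9) and high for Socs1 at 66.0 CPM (47.3 to 54.0) and Sc5d at 87.8 CPM (41.9 to 50.7).

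KO5 was high for Cish at 3.92 CPM (1.91 to 2.55 in the other KO-labelled libraries). KO2, in set A, was low for the macrophage sum at 13833 CPM (15186 to 15880) and the neutrophil sum at 203 CPM (298 to 342), and high for the erythroid and megakaryocyte sum at 304 CPM (222 to 249) and the sex-linked sum at 148 CPM (124 to 131).

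For 2 of 120 genes every KO-labelled library lay on one side of every WT-labelled one in set B and on the other side in set A. Prg2, eosinophil major basic protein, had a KO minus WT log2 difference of -1.25 in set B and 3.64 in set A, and Clec9a, a receptor of cross-presenting dendritic cells, 0.76 and -0.47. Neither passed in set A (adjusted p = 0.34 and 0.66, edgeR). Prg2 was near the floor there, at 0 to 0.224 CPM under the WT label and 0.297 to 1.28 CPM under the KO label. The difference between the sets was not tested.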

How the results depend on the processing

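The count of genes that differ between the sets (479 higher and 261 lower in set B) stayed within 1.5 times under the other scalings, filters, tools and sample sets, and was 799 and 666 at 1.5-fold and 152 and 31 at 4-fold. Leaving out each library in turn gave 480 to 559 higher and 271 to 295 lower. With fewer libraries the condition of no overlap is easier to meet, so such counts tend to rise by the rule itself. The KO minus WT counts moved more. With set as a term (304 genes) they were 1332 with no filter, 1125 with all 36 libraries, 907 with DESeq2, 561 with limma-voom and 533 without the libraries whose label begins with BMDM. At an adjusted p under 0.01 edgeR gave 2, and DESeq2 284 higher and 73 lower. With no set term edgeR gave 0 (614 higher and 586 lower at an unadjusted p under 0.05), DESeq2 23 higher and 15 lower, and limma-voom 0. Leaving out 1 library gave 2 to 1052, and leaving out WT1 and WT5 gave 9.

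Within set A (6 and 2) leaving out 1 library gave 2 to 55 and 2 to 19, the highest without KO2. The 6 libraries of set A alone gave 2 and 1, and dropping WT1 and WT5 gave 2 and 2. Within set B (1598 and 1150) leaving out 1 library gave 1149 to 1734 and 698 to 1372, with 744, 698 and 720 lower without KO3, KO4 and KO5, and set B alone gave 2128 and 1863. The difference in library totals ran from -153861 (without WT2) to 1077930 (without WT1). The median LPS change over all genes with library totals alone was -0.90 (WT) and -0.93 (KO) in set A and -0.76 and -0.83 in set B. The causes were not tested. No named gene called different between the sets changed sign. Called genes had been chosen for a 2-fold difference without overlap in these libraries, so that outcome was nearly fixed in advance. Among uncalled ones 7 changed sign in B minus A: Ckm went from 4.89 to -1.06 without WT1 and WT5, and Cxcl2, Ddx3y, Uty, Il6, Socs1 and Eif2s3y stood at or below 0.20. Of 528 KO minus WT values 212 no longer passed. No paired analysis was possible because the labels give no replicate numbers. Genes near 0 CPM, such as Elane and Prtn3 in set A, are limited by depth.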
